A study of Mus musculus with 18 samples.

Results

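Cma1, Tpsb2 and Prss34 encode serine proteases that mast cells and basophils store in their granules. The genes were taken by name from the authors' deposited tables, 5 in number, which list the genes that differed between groups. They are 3 of the 2202 genes listed there, and they had been picked for their listed differences, so their own values are given as a description with no test. The groups used here were wild type and Beclin 2 KO mice of strain C57BL/6, with 2 samples each of splenic B cells, splenic T cells and lymph nodes, and 2 samples of lymphoma tissue from the knockout. Mice of the B and T cell samples were 8 weeks old, and the labels gave no age for the nodes and lymphomas. Whether the mice of the nodes and lymphomas differed in age is therefore not known. Nothing in the labels ties the duplicates to separate mice, or tells how B and T cells were isolated from spleen. Becn2, the deleted gene, was listed in none of the tables, so they do not check the knockout. Macrophage samples of the same series were not analysed here.

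Mast cells are tissue cells that take up long-term residence around vessels and in connective tissue, and they carry chymases, tryptases and carboxypeptidase in granules bound to heparin. Basophils are circulating granulocytes that share the high-affinity IgE receptor with mast cells but carry a smaller set of proteases. In the mouse, Cma1 (a chymase with elastase-like activity) and Tpsb2 (a tryptase active as a tetramer) are classed with connective tissue mast cells, and Prss34 is a trypsin-like protease made mainly by basophils.

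The genes lie in clusters of proteases on the GRCm38 assembly, as annotated in GENCODE M21. Prss34 (ENSMUSG00000056399, chr17:25298394-25300165, plus strand) and Tpsb2 (ENSMUSG00000033825, chr17:25366305-25369098, plus strand) are the ends of a stretch of 70.7 kb with 5 protein-coding genes. Prss28, Prss29 and Tpsab1 lie between them and were listed in none of the tables. Cma1 (ENSMUSG00000022225, chr14:55941451-55944675, minus strand) opens a stretch of 144 kb with 7 protein-coding genes that ends at Mcpt8, which encodes a basophil protease. Of the genes between them, the chymase gene Mcpt4 was listed and Cma2, Mcpt1, Mcpt9 and Mcpt2 were not. Each of the 3 members has 5 exon regions when overlapping exons of all its transcripts are merged. Reads can be divided between near-identical copies where the counting allows it. Of all 31-base words in its transcripts, Cma1 shared 10.6% with the pseudogene Gm48934, Mcpt4 shared 12.2% with other genes, Tpsb2 shared 0.557% with Tpsab1, and Prss34 and Mcpt8 shared none.

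Start regions are shown for protease genes that were listed in the same comparisons, Cma1 with Mcpt4, which share a cluster, and Prss34 with Mcpt8, which lie on different chromosomes. The sequences are RefSeq's on GRCm38.p6 and run from 250 bases before the gene start to 50 bases after it, 5′ to 3′ on the strand of the gene. They cover chr14:55944626-55944925 and chr14:56062261-56062560 on the minus strand, chr17:25298144-25298443 on the plus strand and chr14:56085148-56085447 on the minus strand. RefSeq start regions were used for 2 of the 3 members. Capitals mark AGATAA or TGATAA, which are some of the letters that GATA factors are known to bind, and TATAAA, the core of a TATA box. Each was searched on both strands.
Cma1: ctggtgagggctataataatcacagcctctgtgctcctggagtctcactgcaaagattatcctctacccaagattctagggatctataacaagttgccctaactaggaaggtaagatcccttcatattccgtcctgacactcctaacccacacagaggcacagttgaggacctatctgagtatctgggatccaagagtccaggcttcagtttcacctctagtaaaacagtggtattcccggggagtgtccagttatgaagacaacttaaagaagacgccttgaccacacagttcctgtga
Mcpt4: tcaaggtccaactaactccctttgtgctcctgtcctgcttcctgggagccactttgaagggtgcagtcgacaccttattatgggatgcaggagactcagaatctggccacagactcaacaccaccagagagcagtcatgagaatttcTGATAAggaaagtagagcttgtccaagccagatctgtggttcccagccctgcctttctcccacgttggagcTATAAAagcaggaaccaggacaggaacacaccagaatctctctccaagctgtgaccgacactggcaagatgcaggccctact
Prss34: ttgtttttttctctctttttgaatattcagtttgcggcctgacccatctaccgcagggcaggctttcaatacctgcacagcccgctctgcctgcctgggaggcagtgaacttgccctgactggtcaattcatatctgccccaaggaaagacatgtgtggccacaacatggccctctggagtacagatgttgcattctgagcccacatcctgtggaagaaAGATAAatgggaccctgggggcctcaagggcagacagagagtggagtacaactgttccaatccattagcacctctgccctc
Mcpt8: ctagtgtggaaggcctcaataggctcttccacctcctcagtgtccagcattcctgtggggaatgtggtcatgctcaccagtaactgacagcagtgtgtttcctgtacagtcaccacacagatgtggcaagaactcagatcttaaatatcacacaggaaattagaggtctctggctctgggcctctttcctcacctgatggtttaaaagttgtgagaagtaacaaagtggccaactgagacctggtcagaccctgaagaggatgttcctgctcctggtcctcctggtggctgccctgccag

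Mcpt4 held TGATAA starting 103 bases before the gene start and TATAAA starting 32 bases before it. Prss34 held AGATAA starting 31 bases before its start. Neither Cma1 nor Mcpt8 held any of these letters in this window. Other letters that GATA factors may bind were not searched, so the absence covers the marked forms only. AGATAA or TGATAA was found in 18.6% of the 32851 start regions of the same length, and TATAAA in 13.6%. These matches are descriptions of sequence, not sites of binding.

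Each table gave 1 normalised read count per group, made by the authors as a mean over the 2 libraries. From most of these means, 87.2% to 99.8% by group and table, the whole reads of each library could be read back, with size factors (the scale of a library's depth) from 0.842 to 1.19. Total reads per library are not known from tables of called genes alone. Libraries are named first and second by size factor, not by the replicate number of the labels. A log2 fold change sets the knockout over the wild type, or lymphoma over node. The tables were normalised separately, so levels are compared within a table only.

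Cma1 and Tpsb2 transcripts were detected in every lymph node library of both genotypes and were scarcer in lymphoma tissue. In the wild-type nodes Cma1 had 213 and 255 reads, in the knockout nodes 283 and 187, and in the lymphomas 41 and 0. Every node library was above both lymphoma libraries, and 1 lymphoma library held all of the lymphoma reads. Scaled to normalised reads, Cma1 stood at 219 and 276 in the wild-type nodes and at 37.9 and 0 in the lymphomas, and the authors' deposited table gave means of 247.6 and 18.9 and a log2 fold change of -3.71. Against knockout node the authors' deposited table gave means of 19.5 and 235.1 and a log2 fold change of -3.59.

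Tpsb2 had 247 and 264 reads in the wild-type nodes, 271 and 266 in the knockout nodes, and 60 and 2 in the lymphomas. The same lymphoma library was again the higher, and no node library overlapped with the lymphomas. The authors' deposited table gave Tpsb2 means of 28.7 for lymphoma beside 269.9 for wild-type node, a log2 fold change of -3.24, and means of 29.5 and 275.8 against knockout node, a log2 fold change of -3.22. Per kilobase of exon, and on the scale of each table, the wild-type nodes held 201 and 253 normalised reads of Cma1 beside 159 and 179 of Tpsb2, and the knockout nodes 232 and 200 beside 152 and 194. The ratio of Cma1 to Tpsb2 within a library, which the scale does not touch, ran from 1.03 to 1.53 over the 4 node libraries. In the first lymphoma library the levels per kilobase were alike, with a ratio of 0.999 that rests on 41 reads of Cma1 and 60 of Tpsb2. The second, with 0 and 2 reads, held too few for a ratio. These ratios depend on the lengths used, 1090 bases for Cma1 and 1594 for Tpsb2, which merge the exons of all transcripts.

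Of the genes tested against knockout node 1.77% were called, 0.7% higher in lymphoma and 1.07% lower. Against wild-type node 7.38% were called, 3.34% higher and 4.04% lower. Cma1 and Tpsb2 were chosen from these calls, and nothing is read from their count. By size of fall they were 23rd and 37th of 253 lower genes against knockout node, and 67th and 79th of 893 against wild-type node. The whole-tissue samples do not tell fewer mast cells from less RNA per cell.

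**Figure D1:**
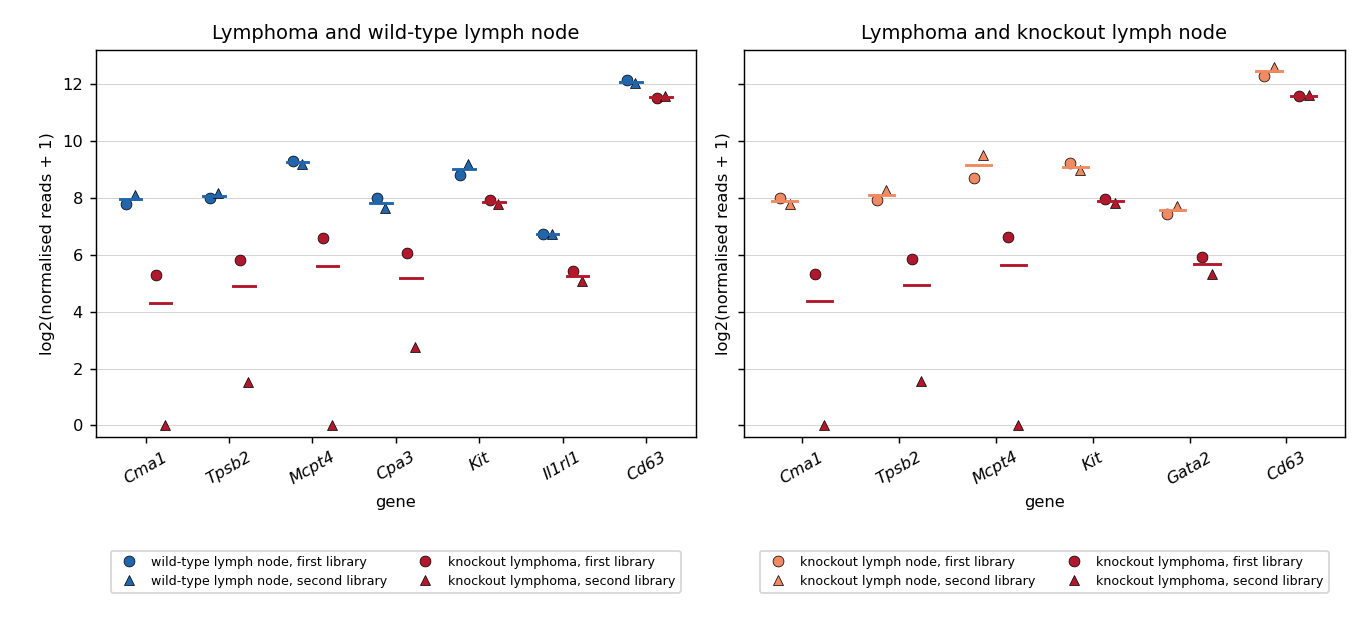
Normalised reads per library of mast cell genes, on a log2 axis after adding 1, in the table of lymphoma and wild-type lymph node (left) and that of lymphoma and knockout lymph node (right); circles are first libraries, triangles second libraries and bars the deposited group means. Cma1 and Mcpt4 sit at 0 in the second lymphoma library, while Kit differs little between the lymphoma libraries, at 259 and 228 reads.

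The lymphoma libraries differed in how much of either protease transcript they kept. Cma1 was 6.03-fold lower in the first lymphoma library than in knockout node and 6.54-fold lower than in wild-type node. In the second, which had no read, it was at least 79.4-fold and 86.4-fold lower, with 3 reads in that library taken as the floor. Tpsb2 was 4.83-fold and 4.87-fold lower in the first library. From its 2 reads in the second, the knockout nodes stood 137 times higher, with an exact 95% counting interval from 37.9 to 1137, and the wild-type nodes 141 times higher, from 38.9 to 1169. Intervals and floors cover counting error only. Both lymphoma libraries were below every node library, and the size of the difference depended on the library.

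Among 1525 genes listed in lymphoma against wild-type node with at least 40 lymphoma reads, 3 had at most 2 reads in either lymphoma library, and they were Cma1, Tpsb2 and Mcpt4. All 3 were low in the second library, and these limits were set after the values were seen. Genes listed only against knockout node were not among the 1525. The neutrophil gene Ngp, listed there and not against wild-type node, also met these limits, with 81 and 1 lymphoma reads. Few reads in the second library were thus not particular to mast cell proteases. The log2 ratio of the first to the second lymphoma library, after adding 1 to normalised reads, was 5.28 for Cma1, 4.28 for Tpsb2 and 6.57 for Mcpt4. Over the 1525 genes the median was 0.04 and the quartiles were -0.17 and 0.23. Transcripts of fat followed the same library, with 84 and 5 reads of Cidec, a lipid droplet protein, 81 and 5 of the hormone gene Adipoq and 305 and 27 of Car3, a carbonic anhydrase of fat and muscle. Salivary gland transcripts leaned the other way, with 5593 and 10425 reads of Dcpp1 and 957 and 2034 of the peroxidase gene Lpo. Of 9 salivary gland genes, 5 were called higher in lymphoma than in knockout node, with a median log2 fold change of 6.86. Against wild-type node 5 were called higher, with a median of 4.21. Of all genes tested, 0.7% and 3.34% were called higher in these comparisons. The part of either in the protease values was not tested.

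**Figure D2:**
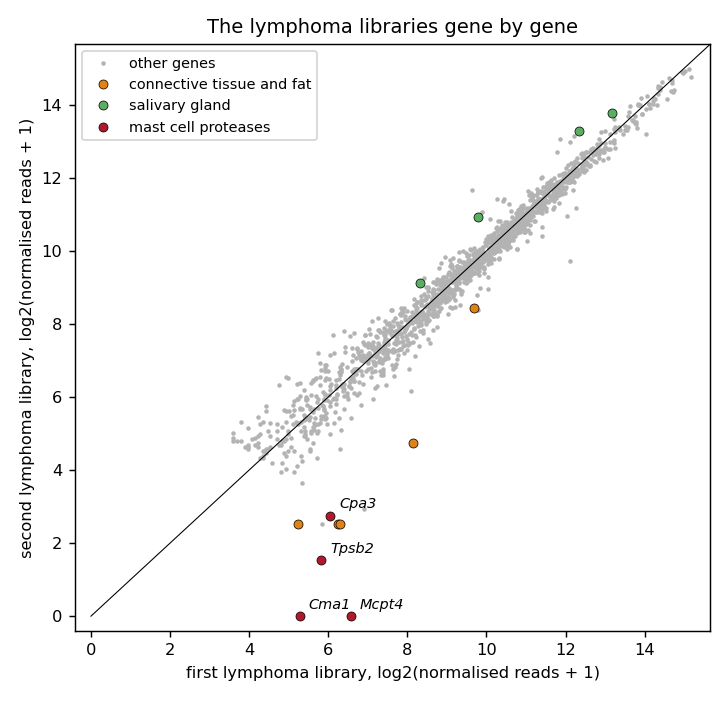
Normalised reads of 1525 genes in the first (horizontal) and second (vertical) lymphoma library, both on log2 axes after adding 1, with the line of equal levels; red points are mast cell proteases, orange points genes of connective tissue and fat, green points salivary gland genes. Cma1, Mcpt4 and Tpsb2 lie farthest below the line, near genes of fat.

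Other mast cell granule proteases were called with them. Of 8 further granule protease genes, 1 was called lower in lymphoma than in knockout node and 2 lower than in wild-type node, and none was called higher. Of all genes tested, 1.07% and 4.04% were called lower in these comparisons. The chymase gene Mcpt4 had 603 and 545 reads in the wild-type nodes, 468 and 620 in the knockout nodes and 102 and 0 in the lymphomas. All lymphoma reads came from the library that also held those of Cma1. Mcpt4 fell by 3.68 on the log2 scale against wild-type node (adjusted p = 1.67e-34) and by 3.55 against knockout node (adjusted p = 0.00448) in the authors' deposited tables of DESeq results. Cpa3, the mast cell carboxypeptidase, had 247 and 185 reads in the wild-type nodes and 71 and 6 in the lymphomas. Both lymphoma values were below those of the nodes, and the authors' deposited table gave a log2 fold change of -2.67 (adjusted p = 2.86e-06) in DESeq results. It was not listed against knockout node. Without the second lymphoma library the log2 fold change of Cma1 was -2.59 against knockout node and -2.71 against wild-type node, that of Tpsb2 was -2.27 and -2.28, that of Mcpt4 -2.55 and -2.68, and that of Cpa3 -1.79 against wild-type node. Without the first, Cpa3 was at -5.31, and Mcpt4, with no read left, was at least 192-fold and 211-fold lower than in knockout and wild-type node.

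Receptors and regulators of mast cells were called lower in lymphoma too, and here the lymphoma libraries were closer to each other. Of 19 identity and mediator genes, 3 were called lower against knockout node, with a median log2 fold change of -1.22 beside -1.44 for all 253 lower genes. Against wild-type node 4 were called lower, with a median of -1.33 beside -0.87 for all 893 lower genes. The lower genes were 1.07% of all genes tested against knockout node and 4.04% against wild-type node. Kit, the receptor for stem cell factor, which blood progenitors and other cells also use, had 431 and 536 reads in the wild-type nodes, 667 and 431 in the knockout nodes and 259 and 228 in the lymphomas. Every node library was above the lymphomas, which were close to each other. The authors' deposited tables of DESeq results gave Kit log2 fold changes of -1.16 against wild-type node (adjusted p = 0.000972) and -1.22 against knockout node (adjusted p = 0.0089). Gata2, a transcription factor of mast cells, basophils and progenitors, had 193 and 181 reads in the knockout nodes against 63 and 40 in the lymphomas, a log2 fold change of -1.95 in the authors' deposited table (adjusted p = 0.0244). Il1rl1, the receptor for interleukin 33, had 102 and 96 reads in the wild-type nodes against 45 and 34 in the lymphomas, at -1.50 in the authors' deposited table (adjusted p = 0.0462). Gata2 was not listed against wild-type node, nor Il1rl1 against knockout node.

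Alox5, which begins leukotriene synthesis in mast cells and other myeloid cells, had 96 and 54 reads in the wild-type nodes and 16 and 4 in the lymphomas. Its log2 fold change was -3.08 in the authors' deposited table of DESeq results (adjusted p = 0.00242). It was -4.36 without the first lymphoma library and -2.41 without the second. Cd63, a membrane protein of granules in many cell types, fell by 0.54 on the log2 scale against wild-type node and by 0.86 against knockout node in the authors' deposited tables. Fcer1g, the signalling chain of the IgE receptor and of other Fc receptors in myeloid and NK cells, had 923 and 787 reads in the wild-type nodes and 396 and 453 in the lymphomas, at -1.17 in the authors' deposited table of DESeq results (adjusted p = 1.19e-07). Alox5 and Fcer1g were not listed against knockout node. The other IgE receptor genes Fcer1a and Ms4a2 and the histamine enzyme gene Hdc were not listed in a comparison of lymphoma, so their levels there are not known.

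Factors that act on mast cells were among the called genes. Of 10 growth factors and type 2 cytokines, 1 was called lower in lymphoma than in knockout node and 2 lower than in wild-type node. Of all genes tested, 1.07% and 4.04% were called lower in these comparisons, and nothing is read from counts this small. Kitl, the stem cell factor that binds Kit, had 1080 and 758 reads in the knockout nodes and 554 and 317 in the lymphomas, a log2 fold change of -1.14 in the authors' deposited table (adjusted p = 0.00211). Il33, the ligand of Il1rl1, had 1260 and 1062 reads in the wild-type nodes and 701 and 514 in the lymphomas, at -1.10 in the authors' deposited table (adjusted p = 3.51e-08). Il13, a type 2 cytokine, had 21 and 26 reads in the wild-type nodes and 0 in both lymphomas, at least 17.7-fold lower with 3 reads over the group as the floor. It was called by the authors' DESeq test (adjusted p = 0.00591). Kitl was not listed against wild-type node, nor were Il33 and Il13 against knockout node.

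Some genes on the list of connective tissue and fat were lower in lymphoma as well. Of 13 genes of connective tissue and fat, 4 were called lower in lymphoma than in knockout node and 7 lower than in wild-type node. Of all genes tested, 1.07% and 4.04% were called lower in these comparisons. Summed over the 4 listed against knockout node, the lymphoma libraries held 467 and 47.4 normalised reads and the knockout nodes 1453 and 1678. Those 4 were Adipoq, Car3, Cidec and Cfd, and Pck1, Plin1 and Fabp4 were also called against wild-type node. The collagen genes Col1a1, Col1a2 and Col3a1 were not listed, nor were Dcn, Lum and Pdgfra. The labels do not tell which tissue these transcripts came from. Of 11 neutrophil genes, 7 were called lower than in knockout node, with sums of 422 and 49.4 in the lymphomas and 1972 and 2094 in the nodes, and 1 lower than in wild-type node. The first lymphoma library was the higher in both lists, as it was for the mast cell proteases. Between the nodes themselves, 7 neutrophil genes were called higher in the knockout and 4 of the connective tissue and fat genes lower. There 0.181% of all genes tested were called higher in the knockout and 0.294% lower. Of 14 basophil genes, 1 was called lower in lymphoma than in knockout node, and 1 was called higher and 2 lower than in wild-type node. Against wild-type node 3.34% of all genes tested were called higher. The part of these tissues and cells in the protease values was not tested.

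No member was listed in knockout against wild-type node, nor in knockout against wild-type B cells. The authors' DESeq test called 0.475% of genes between the nodes, 0.181% higher in the knockout and 0.294% lower. Between the B cells it called 1.24%, with 0.493% higher and 0.751% lower. How many members had an unadjusted p under 0.05 is not known from tables of called genes. Of the 14 basophil genes, 3 were called lower in knockout B cells, the integrin gene Itga2 at -1.44 and the chemokine genes Ccl3 at -1.05 and Ccl4 at -0.94 in the authors' deposited table, and these are used by other blood cells too. The node reads above can be set on the size factors of the node table. Cma1 then stood at 212 and 268 normalised reads in wild type and 239 and 206 in knockout, and Tpsb2 at 246 and 277 against 229 and 293. The genotypes overlapped for both genes.

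Prss34 was high in knockout T cell preparations and low in wild-type ones. Its reads numbered 377 and 305 in knockout and 16 and 16 in wild type, or 351 and 301 against 14.4 and 19.0 after scaling. The genotypes did not overlap, and the libraries within each were close. In the authors' deposited table the means were 326.2 and 16.7 normalised reads, a log2 fold change of 4.29, the 27th largest of 418 rises. The value stayed between 4.10 and 4.50 with any 1 of the 4 libraries left out. In T cells 2.35% of the genes tested were called, 1.67% higher in the knockout and 0.676% lower, and Prss34 was chosen from these calls.

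Basophil genes were called higher in the same T cell preparations. Of 14 basophil genes 4 were called, all higher, with a median log2 fold change of 2.41 beside 1.54 for all 418 higher genes. Those higher genes were 1.67% of all genes tested. Mcpt8, a basophil granule protease encoded in the chymase cluster, had 124 and 125 reads in knockout and 6 and 18 in wild type, and was at 3.16 in the authors' deposited table of DESeq results (adjusted p = 6.87e-10). With 1 library left out Mcpt8 ran from 2.48 to 4.46, highest without the wild-type library of 18 reads. Ms4a2, the beta chain of the IgE receptor in mast cells and basophils, had 32 and 45 reads in the knockout and 4 and 4 in the wild type, at 3.15 in the authors' deposited table (adjusted p = 0.00538). Per kilobase of exon, Prss34 stood at 288 and 247 normalised reads in the knockout libraries and Mcpt8 at 116 and 124. In the wild type the levels per kilobase were 11.8 and 15.6 for Prss34 and 5.42 and 21.4 for Mcpt8. Prss34 was above Mcpt8 in 3 of the 4 libraries.

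The other called basophil genes are shared with further myeloid cells. Cebpa, a transcription factor of granulocytes and monocytes, had 407 and 368 reads in knockout and 108 and 115 in wild type, at 1.67 in the authors' deposited table (adjusted p = 1.68e-08). Csf2rb, the common receptor chain for interleukin 3, interleukin 5 and GM-CSF, had 623 and 526 against 351 and 300, at 0.71 in the authors' deposited table (adjusted p = 0.04). None of the 8 further mast cell granule proteases was listed in T cells, nor were Cma1, Tpsb2, Kit or Fcer1a, and their levels there are not known. The T cell genes Cd3e and Cd3d were not listed in any table, so the tables do not check the purity of the preparations.

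**Figure D3:**
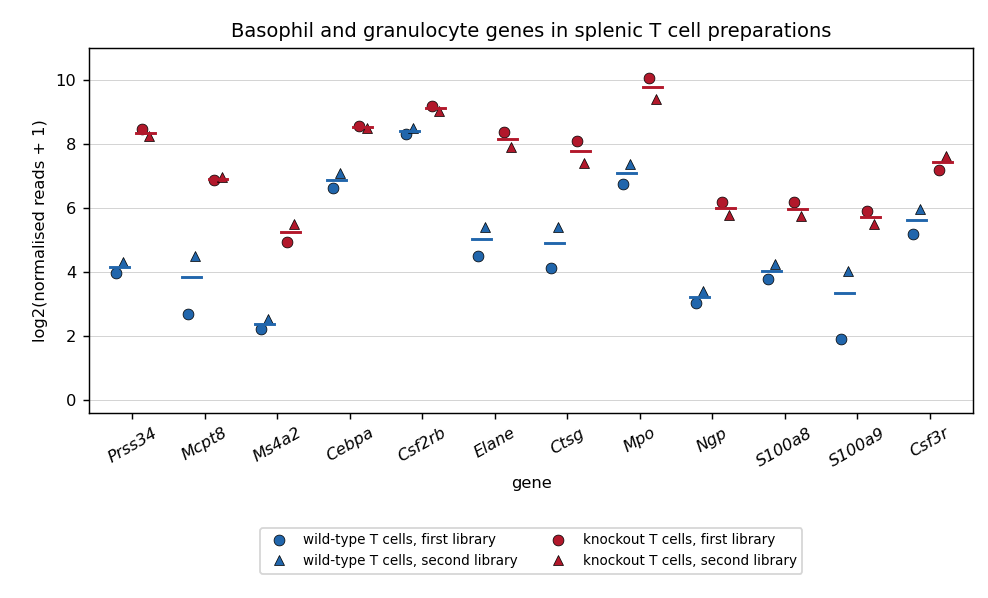
Normalised reads per library in splenic T cell preparations, on a log2 axis after adding 1; red is knockout, blue wild type, circles are first libraries, triangles second libraries and bars the deposited means. Prss34, with 377 and 305 reads against 16 and 16, shows the widest gap of the genes drawn.

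Proteases and peroxidase of immature granulocytes rose beside Prss34. Of 5 such genes 3 were called in T cells, all higher, where 1.67% of all genes tested were called higher. Elane, neutrophil elastase, had 355 and 240 reads in knockout and 24 and 35 in wild type, at 3.17 in the authors' deposited table (adjusted p = 2e-08). Ctsg, cathepsin G, had 292 and 169 against 18 and 35, at 2.93 in the authors' deposited table (adjusted p = 0.00151), and 3.76 without the wild-type library of 35 reads. Mpo, myeloperoxidase, had 1144 and 682 against 118 and 137, at 2.69 in the authors' deposited table (adjusted p = 0.000943). Of 11 neutrophil genes, 4 were called higher, Ngp at 2.91, S100a9 at 2.51, S100a8 at 2.03 and Csf3r at 1.82 in the authors' deposited table. S100a9 had 3 and 13 reads in wild type, and its value was 1.74 without the first of these libraries and 4.25 without the second. Summed over these 4 genes, the knockout libraries held 347 and 349 normalised reads and the wild-type libraries 57.7 and 104. The part of these cells in the Prss34 value was not tested.

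Genes of the most similar pattern were sought by the distance between log2 fold changes in the tables that list a member. For Cma1, over 2 comparisons and 273 candidate genes, Mcpt4 was nearest at a distance of 0.05, followed by the lectin genes Cd209d at 0.25 and Cd209f at 0.50, then Tpsb2 at 0.60 and Colgalt2 at 0.64. For Tpsb2 they were Prkg2 at 0.27, Cpe at 0.31, Insm1 at 0.33, Colgalt2 at 0.35 and Marco at 0.40. These 2 comparisons share the lymphoma samples. Their reads were divided between the lymphoma libraries in different ways. Mcpt4 had 102 and 0, Cd209d 43 and 12, Cd209f 25 and 7, Insm1 56 and 20, Prkg2 26 and 11, Colgalt2 16 and 12, and Cpe, a carboxypeptidase of hormone processing, 305 and 189. Marco, a scavenger receptor of macrophages, had more in the second library, at 776 and 1022. For Prss34, with 1 comparison and 437 candidates, the nearest were Xkr6 at 0.01, Hp at 0.08, Ecel1 at 0.11, C4b at 0.46 and Kcnf1 at 0.48. With 1 comparison the distance is only a difference in T cell fold change. Unlike Prss34, some were called higher elsewhere too. Xkr6 was at 4.18 in B cells, 2.84 in knockout node and 3.30 in lymphoma against wild-type node. Kcnf1 was at 4.86 in knockout node and 4.94 in lymphoma against wild-type node, and Ecel1 at 2.97 in the latter. Hp and C4b were listed in T cells only.

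**Figure D4:**
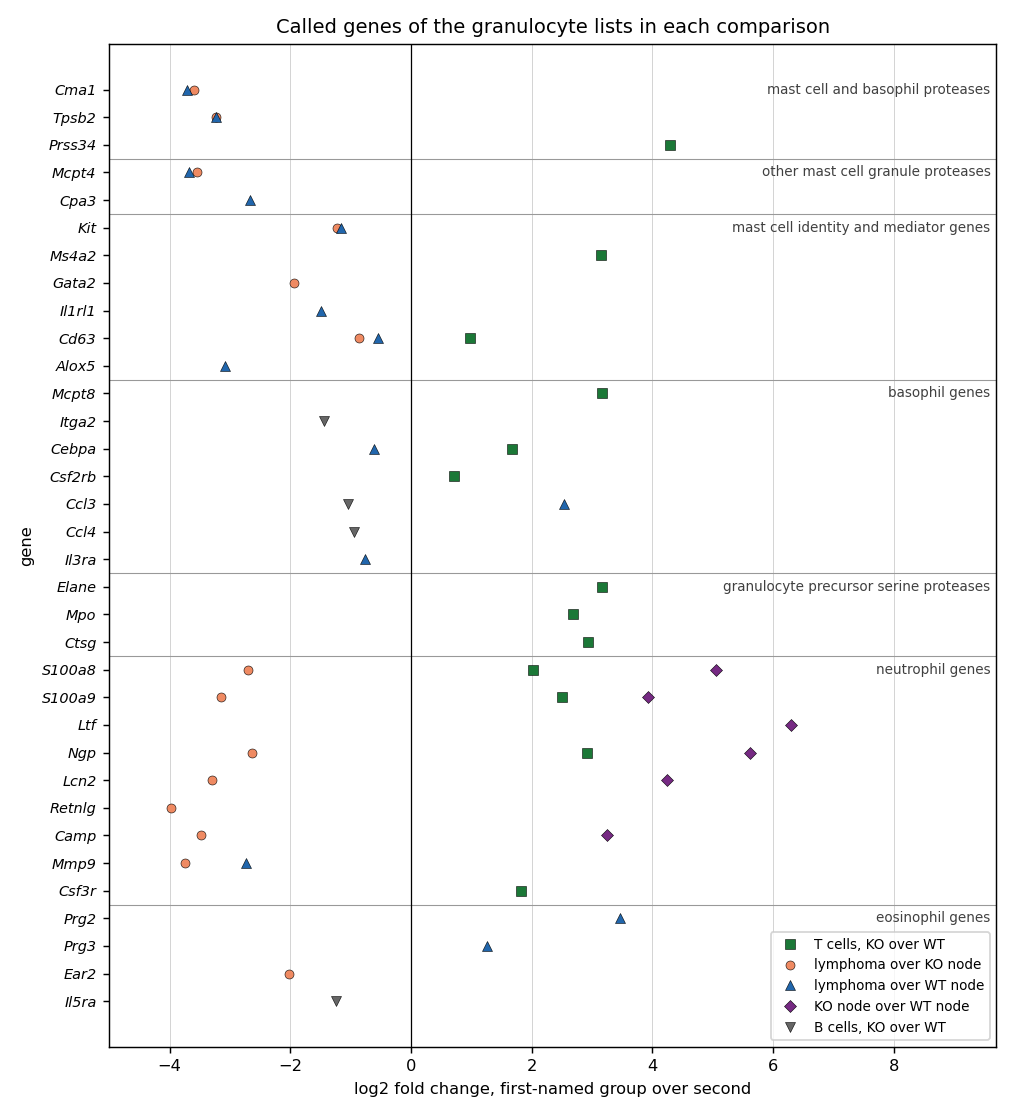
Log2 fold change (horizontal) of each called gene of 7 lists (vertical) in each comparison, from the deposited means; each gene is drawn under the first list that holds it, and values without a finite fold are left out. Cma1, Tpsb2 and Mcpt4 lie left of 0 in both lymphoma comparisons, and Cpa3 in that with wild-type node, the only one that lists it. Prss34 and Mcpt8 lie right of 0 in T cells.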

How the data were processed

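Poly(A) RNA libraries were read on the Illumina HiSeq platform, as the labels' protocols state. CASAVA 1.8 and DESeq, with no version, and the build GRCm38 (mm10) are named in the submitters' processing notes. The aligner, counter, strand setting and annotation release are not given in the sources used here. The authors deposited a signal of 1 mean normalised read count per group and gene. The authors' log2 fold changes were recomputed from these means and differed from the deposited values by at most 5e-05. The p-value and adjusted p-value are those the authors deposited. All listed genes had an adjusted p under 0.05. The number of genes tested was worked out from p, its rank and the adjusted p.

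Whole reads of each library were read back by finding the size factors that write each mean as whole reads of 2 libraries, a step tested on simulated data. Genes that 2 tables list for a common group gave matching reads in 420 of 420 cases. No test was added, because the listed genes had been selected by the authors' test. Members, gene lists and limits were chosen with earlier results of these data known. Genes were named if they were members, if they were on a list, or if they were among the 5 of most similar pattern, leaving out receptor segments and predicted genes. Not all of them are printed. P-values set a difference in means against a spread estimated from 2 samples a group, which may be technical. A small p-value does not show that the samples of a group were alike for that gene. Mcpt4, called in both lymphoma comparisons, had 102 and 0 lymphoma reads. Its adjusted p in the authors' DESeq test was 1.67e-34 against wild-type node and 0.00448 against knockout node. Python 3.11.15, numpy 2.4.6 and scipy 1.17.1 were used. Alternatives were 1 added to the means, reads without size factors, each library left out, an adjusted p under 0.01 and at least 2-fold apart.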

Additional observations from a re-analysis of the deposited data

How the results depend on the processing

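The counts of members called, 1 in T cells, 2 in each lymphoma comparison and 0 in B cells and lymph node, were the same at an adjusted p under 0.01 and among genes at least 2-fold apart. Direction was kept in every alternative run. With 1 library left out, the log2 fold change of Tpsb2 ran from -7.13 to -2.27 against knockout node and from -7.14 to -2.28 against wild-type node, lowest without the first lymphoma library, which left 2 lymphoma reads, and highest without the second. Cma1 ran from -6.31 to -2.59 and from -6.43 to -2.71 in the same order, where the lower values are bounds from 3 reads. Prss34 in T cells ran from 4.10 to 4.50. With 1 added to both means Cma1 was at -3.52 and -3.64, Tpsb2 at -3.18 and -3.19, and Prss34 at 4.21. Sums of reads without size factors gave -3.52 and -3.51, -3.11 and -3.04, and 4.41. No paired analysis was possible because the tables hold 1 mean per group and the libraries read back from them carry no replicate number. The authors' test could not be rerun without a library. Members at few reads, such as 41 and 0, are limited by depth as well as by the number of samples.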

Other observations

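Of 9 eosinophil genes, 2 were called higher in lymphoma than in wild-type node, and 1 was called lower than in knockout node. Of all genes tested, 3.34% were called higher than in wild-type node and 1.07% lower than in knockout node. Prg2, the major basic protein gene, had 567 and 323 reads in the lymphomas and 62 and 11 in the wild-type nodes, a log2 fold change of 3.46 in the authors' deposited table of DESeq results (adjusted p = 0.000565). With 1 library left out it ran from 2.71 to 5.13, highest without the wild-type library of 62 reads. Prg3, its close relative, had 381 and 291 against 155 and 95, at 1.26 in the authors' deposited table (adjusted p = 0.00159). Ear2, an eosinophil ribonuclease gene that macrophages also express, was lower than in knockout node at -2.03 in the authors' deposited table (adjusted p = 0.00599). Prg2 and Prg3 were not listed against knockout node, and Epx, Siglecf and Ccr3 were not listed in any table. The part of other cell types in these values was not tested.

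Beside the tryptase cluster, Cacna1h, a calcium channel gene, went against Tpsb2. It had 587 and 811 reads in the lymphomas against 111 and 116 in the wild-type nodes and 159 and 150 in the knockout nodes, at 2.46 and 2.10 in the authors' deposited tables of DESeq results (adjusted p = 7.79e-06 and 0.000421). In T cells it had 584 and 668 reads in knockout against 76 and 125 in wild type, at 2.47 in the authors' deposited table (adjusted p = 1.19e-13). With 1 library left out the T cell value ran from 2.02 to 3.13.

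Transcripts for IgE, the antibody class that arms mast cells and basophils, differed in B cells, and antibody itself was not measured. Ighe, the IgE constant region, had 268 and 149 reads in knockout B cells and 11 and 2 in wild type, at 5.34 in the authors' deposited table of DESeq results (adjusted p = 4.62e-05). With 1 library left out it ran from 4.63, without the wild-type library of 2 reads, to 6.83, without that of 11. Fcer2a, the low-affinity IgE receptor of B cells, was lower at -0.93 in B cells, -0.88 in knockout node and -1.39 in lymphoma against wild-type node in the authors' deposited tables. Genes for the granzymes, relatives of the chymases, went in both directions in lymphoma against wild-type node, with Gzmc at 3 and 1 reads against 64 and 57, and Gzmk at 726 and 868 against 11 and 14.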
